A study of Homo sapiens with 9 samples.

Results

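Mucins are large glycoproteins whose long serine- and threonine-rich repeats carry dense O-linked sugar chains. Secreted gel-forming mucins are stored in goblet cells, the mucus-making cells of the gut lining, and build the mucus layer after release. Membrane mucins stay anchored at the apical surface, form the glycocalyx, and in several cases pass signals through cytoplasmic tails. In the normal colon MUC2 is the main gel-forming mucin, whereas MUC5AC and MUC5B are better known from the stomach and the airways.

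The mucin genes were examined in RNA-Seq profiles of HT-29, an established human colon cancer cell line. The cells had received vehicle alone (DMSO, 0 µM) or 5-aza-deoxy-cytidine (5-Aza), an inhibitor of DNA methylation, at 5 µM or 10 µM. Treatment lasted 5 days, and each of the 3 groups had 3 replicate cultures of this 1 line, grown in the same medium. DNA methylation itself was not analysed here. A panel of 10 symbols of gut and airway mucins was looked up, and 8 of them had an entry among the 23284 gene symbols of the expression tables. MUC5AC and MUC3A had no entry, so their level is not analysed here. The 8 mucins were made up of 2 secreted mucins, MUC2 and MUC5B, and 6 membrane mucins, MUC1, MUC4, MUC12, MUC13, MUC17 and MUC20. All 8 passed the filter on low values in every comparison, but that filter is lenient and removes few expressed genes.

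The 8 genes lie in 5 places of the genome (GRCh37, the assembly also called hg19). MUC2 (chr11:1074875-1104416) and MUC5B (chr11:1244296-1283402) stand on the plus strand 140 kb apart. MUC20 (chr3:195447755-195467994, plus strand) and MUC4 (chr3:195473636-195538844, minus strand) are separated by 5.64 kb. MUC12 (chr7:100612846-100662220) and MUC17 (chr7:100663353-100702140) follow each other on the plus strand with a gap of 1.13 kb. MUC13 (chr3:124624289-124672663) and MUC1 (chr1:155158300-155162707) stand on the minus strand with no other panel member near them. Antisense transcripts are annotated within MUC5B and MUC12, and transcripts on the same strand overlap MUC1 (a gene annotated as protein coding), MUC17 and MUC20. The sources used here do not say that reads were counted by strand. Repeats and near copies, above all in MUC12, MUC17 and MUC20, may also have shared reads, so the levels of these genes are uncertain.

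As 5-Aza blocks the methylation of CG dinucleotides, the 250 bases before the annotated start are shown for the 2 membrane mucins with the largest changes, for the main secreted mucin and for the mucin with the highest level. The sequences come from RefSeq (GRCh38.p14), run 5′ to 3′ on the gene's strand, and have each CG in capitals. Their GRCh37 positions, found by exact match, are chr1:155162707-155162956 for MUC1, chr3:195538801-195539050 for MUC4, chr11:1074624-1074873 for MUC2 and chr3:124653596-124653845 for MUC13. The MUC13 window lies inside the annotated span of the gene.
MUC1: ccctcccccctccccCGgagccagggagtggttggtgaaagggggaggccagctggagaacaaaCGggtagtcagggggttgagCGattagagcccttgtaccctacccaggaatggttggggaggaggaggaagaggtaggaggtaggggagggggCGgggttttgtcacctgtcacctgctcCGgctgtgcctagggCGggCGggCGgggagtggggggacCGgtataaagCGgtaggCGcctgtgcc
MUC4: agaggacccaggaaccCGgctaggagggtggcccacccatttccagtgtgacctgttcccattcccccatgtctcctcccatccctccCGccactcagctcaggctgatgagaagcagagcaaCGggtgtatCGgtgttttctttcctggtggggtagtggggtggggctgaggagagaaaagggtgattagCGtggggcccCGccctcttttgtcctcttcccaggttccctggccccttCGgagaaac
MUC2: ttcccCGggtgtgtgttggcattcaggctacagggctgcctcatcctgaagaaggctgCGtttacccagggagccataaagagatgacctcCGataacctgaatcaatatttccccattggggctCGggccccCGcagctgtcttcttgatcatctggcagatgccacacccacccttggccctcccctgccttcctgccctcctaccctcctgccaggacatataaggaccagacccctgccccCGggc
MUC13: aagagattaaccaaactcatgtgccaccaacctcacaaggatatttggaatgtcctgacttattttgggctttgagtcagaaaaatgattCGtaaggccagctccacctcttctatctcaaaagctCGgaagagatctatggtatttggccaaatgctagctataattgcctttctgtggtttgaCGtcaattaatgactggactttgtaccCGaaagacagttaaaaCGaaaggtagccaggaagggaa
The MUC1 window held 11 CG dinucleotides, the median over 27305 promoter windows of the same length. MUC4 held 7, MUC2 held 6 and MUC13 held 5, and for each of these genes more promoters had a higher count than a lower one. The other windows with a sequence held 7 (MUC12) and 2 (MUC17), and MUC5B and MUC20 were not among the sequences used. The motif GGGCGG, searched on both strands with overlaps counted, occurred 4 times in MUC1, once in MUC4 and not in MUC2 or MUC13, and 42.3% of all windows held it. The motif TATAAA, searched the same way, occurred in MUC1 and MUC12 among the 6 windows, and 11.1% of all windows held it. Neither count is a measure of binding or of methylation.

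Levels are given in FPKM, fragment counts scaled to transcript length and library size, as the authors deposited them. The values of a library summed to between 3.69e+09 and 5.91e+09, so an FPKM here is a relative level. The number of fragments behind each library, estimated from the steps between low values, ran from 1.17e+07 in 10 µM replicate 1 to 3.19e+07 in 5 µM replicate 3. Among genes above 0 in all samples compared, the median log2 difference was -0.037 for 5 µM against 0 µM, -0.24 for 10 µM against 5 µM and -0.23 for 10 µM against 0 µM, so values that include the 10 µM group sit on a shifted centre. The 8 epithelial markers examined were all above 0 in each group, with a summed level of 7.65e+07 to 9.16e+07 FPKM at 0 µM, 3.12e+07 to 3.56e+07 at 5 µM and 2.49e+07 to 4.32e+07 at 10 µM. KRT8 and KRT18 made up 68.1% to 85.7% of this sum. At 5 µM both were called down and CEACAM5 was called up (log2 fold change 1.59), while EPCAM (-0.23) and CDH1 (-0.064) did not pass. Of the 8 markers 7 had a negative log2 fold change at 5 µM. By limma 5 had an adjusted p of at most 0.05 downward, against 17.7% of all genes tested. At 10 µM against vehicle KRT20 and CDX2 were called down, where 3.40% of all genes tested were. With 1 library left out 0 to 4 of the 8 were called down there. The summed level of 11 stromal, endothelial and immune markers was 1.36e+05 to 1.44e+05, 7.06e+05 to 7.5e+05 and 2.26e+05 to 3.74e+05 FPKM, in the same order of groups. CD68 alone made up 84.7% to 92.6% of this sum. Without CD68 the sum was 1.04e+04 to 1.83e+04, 5.22e+04 to 6.47e+04 and 2.94e+04 to 3.48e+04 FPKM. At 5 µM 6 of the 11 were called up and none down, against 14.1% and 2.17% of all genes tested. They were CD3E, CD68, COL1A1, COL1A2, PECAM1 and VWF. CD3E and COL1A2 rested on at most 3.55 and 11.7 estimated fragments per library. With 1 library left out 4 to 8 were called up. In each group 1 of the 11 was listed at 0 in all replicates (CD3E at 0 µM, DCN at 5 µM and COL1A2 at 10 µM). The part of these shifts in the mucin values was not tested. RNA came from whole cultures, so fewer cells making a mucin and less mucin RNA per cell cannot be told apart.

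In vehicle-treated cells the mucin RNAs spanned a wide range of levels. MUC13, a short membrane mucin of the intestinal surface, was the highest at 372889 ± 58691 FPKM (SD, n = 3). MUC2 followed at 124499 ± 15697 FPKM and MUC20, a membrane mucin that binds the receptor MET, at 68067 ± 5121 FPKM. MUC5B stood at 23910 ± 2789 FPKM and MUC12 at 13370 ± 1006 FPKM. The lowest 3 were MUC1, the broadly expressed epithelial membrane mucin, at 6934 ± 2062 FPKM, MUC17 at 5750 ± 902 FPKM, and MUC4, a ligand of ERBB2, at 1239 ± 548 FPKM. Each gene's replicates lay apart from those of its neighbour in this order, except that MUC1 and MUC17 overlapped. The order compares levels per length. It is rough for MUC2, whose annotated transcript of 4209 nucleotides is marked as affected by an error in the reference genome.

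**Figure D1:**
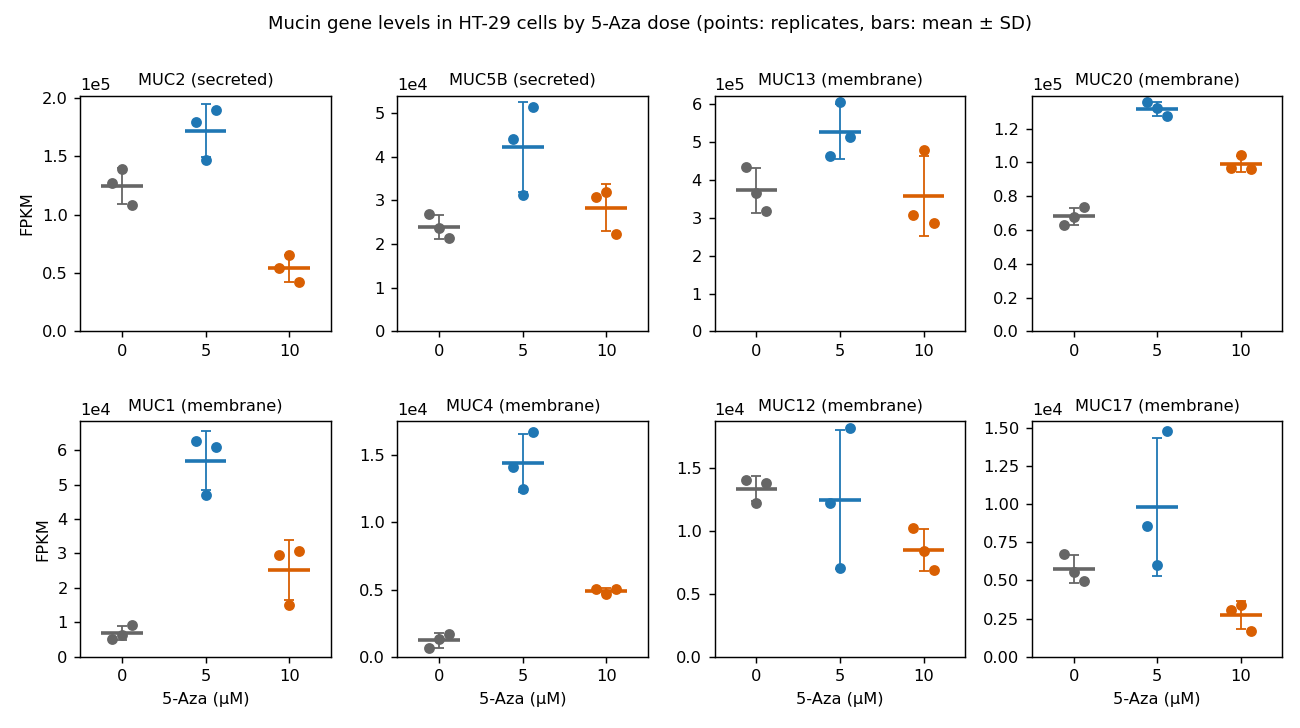
FPKM (linear axes from 0, each panel with its own scale) of the 8 mucin genes against 5-Aza concentration, with points for replicates and bars for the mean ± SD. MUC1 and MUC4 at 5 µM stand far above the vehicle replicates, and MUC2 at 10 µM lies below both other groups.

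At 5 µM, MUC1 and MUC4 rose several-fold against vehicle, while the mucin RNAs that were already abundant moved by less than 2-fold. MUC4 had 643, 1353 and 1721 FPKM in the vehicle replicates and 14087, 12476 and 16753 FPKM at 5 µM. The groups were far apart, with a ratio of means of 11.7 and a log2 fold change of 3.65 (SE 0.43, limma with Benjamini-Hochberg adjustment, adjusted p = 0.00127). MUC1 had 5249, 6320 and 9234 FPKM with vehicle and 62694, 47041 and 60914 FPKM at 5 µM. It thus passed from the lower end of the panel to a level that overlapped MUC5B, with a ratio of means of 8.20 and a log2 fold change of 3.07 (SE 0.25, limma, adjusted p = 0.000427). All fold changes are differences of log2(FPKM + 1). A gene is called here when its adjusted p is at most 0.05 and its log2 fold change is above 1 or below -1. By that rule 2 of the 8 mucins were called up and none down, against 14.1% of all 20051 genes tested called up and 2.17% called down. The median log2 fold change of the 8 was 0.74, beside 0.14 over all genes tested.

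The lowest values of both genes rested on few fragments. An estimated 10.9, 19.8 and 40.9 fragments lay behind MUC1 in the vehicle libraries, against 313, 223 and 325 at 5 µM. For MUC4 the estimates were 13.3, 42.4 and 76.3 against 703, 592 and 895. Vehicle replicate 1, the library with the smallest estimated depth in its group, had the lowest value of both genes. Both calls remained when any 1 library was left out, with log2 fold changes of 2.89 to 3.29 for MUC1 and 3.23 to 3.94 for MUC4.

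Of the other mucins, 4 had an adjusted p of at most 0.05 without reaching a 2-fold change. MUC20 had 63203, 67586 and 73412 FPKM with vehicle and 135785, 131953 and 127572 FPKM at 5 µM. It was the tightest of these, at a log2 fold change of 0.96 (SE 0.08, limma, adjusted p = 0.000498), and passed the fold threshold at 1.01 only when vehicle replicate 3 was left out. The secreted MUC5B had 26838, 23608 and 21285 FPKM with vehicle and 43999, 31249 and 51426 FPKM at 5 µM, a log2 fold change of 0.80 (SE 0.21, limma, adjusted p = 0.0252). The secreted MUC2 had 126674, 138995 and 107828 FPKM against 179089, 146890 and 189785 FPKM. Its log2 fold change was 0.47 (SE 0.14, limma, adjusted p = 0.0365), with the lowest 5 µM replicate only slightly above the highest vehicle replicate. MUC13 had 434587, 366321 and 317758 FPKM against 464278, 605437 and 513754 FPKM, a log2 fold change of 0.50 (SE 0.15, limma, adjusted p = 0.0361). With MUC1 and MUC4, 6 of the 8 genes had an adjusted p of at most 0.05 in the upward direction, against 21.3% of all genes tested. That count was less stable than the calls for MUC1 and MUC4. With vehicle replicate 1, 2 or 3 left out it was 5, 4 and 3, and with 5 µM replicate 1, 2 or 3 left out it was 4, 5 and 3, with MUC2, MUC5B and MUC13 the genes that missed. MUC2 and MUC13 also missed in 1 fit of all 9 samples (limma, adjusted p = 0.0834 and 0.103).

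MUC12 and MUC17, the neighbouring membrane mucins of chromosome 7, did not pass. MUC17 had 6740, 5535 and 4974 FPKM with vehicle and 8585, 6038 and 14792 FPKM at 5 µM (log2 fold change 0.68, SE 0.37, limma, adjusted p = 0.181). MUC12 had 14066, 12217 and 13827 FPKM against 12254, 7087 and 18214 FPKM (log2 fold change -0.20, SE 0.35, limma, adjusted p = 0.664). For both genes the groups overlapped, and 5 µM replicate 3 was the highest and replicate 2 the lowest of its group. Without replicate 2 the log2 fold change of MUC12 was 0.16. In the 6 other mucins every 5 µM replicate lay above every vehicle replicate, a pattern found in 29.4% of all genes tested. An exact permutation test of 3 against 3 replicates cannot go below p = 0.1.

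At 10 µM, MUC2 and MUC4 fell by more than 2-fold from their levels at 5 µM. MUC2 had 53986, 65212 and 42559 FPKM at 10 µM, all below every replicate of the other groups. Against 5 µM the log2 fold change of MUC2 was -1.69 (SE 0.19, limma, adjusted p = 0.0058) and the ratio of means 0.314. MUC4 had 5021, 4667 and 5068 FPKM at 10 µM, between the vehicle and the 5 µM replicates. Its log2 fold change against 5 µM was -1.54 (SE 0.25, limma, adjusted p = 0.0145) and its ratio of means 0.341. By the calling rule 2 of 8 mucins were down and none up, against 4.82% of all 20085 genes tested called down and 0.129% called up. The 5 µM libraries are shared with the comparison against vehicle, so a fall here and a rise there are not separate evidence.

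The log2 difference of all 8 mucins was negative in this comparison, also with median-of-ratios scaling, and 6 did not meet the rule. The median over the 8 was -0.91, beside -0.31 over all genes tested. MUC17 had 3055, 3409 and 1679 FPKM at 10 µM (log2 fold change -1.82, SE 0.46, limma, adjusted p = 0.0680). MUC1 had 29669, 15120 and 30765 FPKM (log2 fold change -1.23, SE 0.30, limma, adjusted p = 0.0610). Replicate 2 stood apart from the other 10 µM replicates for MUC1, and each of the 3 was below the 5 µM replicates. MUC20 had 96498, 104616 and 95938 FPKM, again without overlap (log2 fold change -0.41, SE 0.11, limma, adjusted p = 0.0831). The values were -0.59 for MUC13 (308608, 478673 and 286523 FPKM, adjusted p = 0.166 by limma), -0.56 for MUC5B (30810, 32029 and 22267 FPKM, adjusted p = 0.211 by limma) and -0.47 for MUC12 (10218, 8409 and 6883 FPKM, adjusted p = 0.476 by limma). The groups of 5 mucins, MUC1, MUC2, MUC4, MUC17 and MUC20, did not overlap, with the 10 µM group lower, against 25.3% of all genes tested. The MUC2 call was lost without 5 µM replicate 3 (limma, adjusted p = 0.0545) and the MUC4 call without 5 µM replicate 1, 2 or 3 (0.0655, 0.0502 and 0.0858), while MUC17 met the rule without 10 µM replicate 2 (0.0375). Over all alternatives the limma adjusted p ran from 0.00196 to 0.161 for MUC2, from 0.00971 to 0.634 for MUC4 and from 0.0355 to 0.89 for MUC17, with the highest under a test of the fold threshold itself.

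Against vehicle, the 10 µM group held a split panel in which MUC1 and MUC4 rose and MUC2 fell. MUC1 had a ratio of means of 3.63 and a log2 fold change of 1.83 (SE 0.37, limma, adjusted p = 0.0237). MUC4 had a ratio of means of 3.97 and a log2 fold change of 2.10 (SE 0.52, limma, adjusted p = 0.0392). MUC2 had a ratio of means of 0.433 and a log2 fold change of -1.22 (SE 0.19, limma, adjusted p = 0.0119). Thus 2 of 8 mucins were called up and 1 down, where 4.07% of all 18928 genes tested were called up and 3.40% down. The median of the 8 was 0.0745, beside -0.15 over all genes tested. MUC20 was 0.54 higher on the log2 scale (SE 0.13, limma, adjusted p = 0.0341), under the fold threshold. MUC17 was at -1.14 (SE 0.43, limma, adjusted p = 0.108) and MUC12 at -0.67 (SE 0.27, limma, adjusted p = 0.124), both without overlap between the groups. MUC5B, the other secreted mucin, was at 0.23 (SE 0.22, limma, adjusted p = 0.478) and MUC13 at -0.086 (SE 0.22, limma, adjusted p = 0.801), which became 0.16 with median-of-ratios scaling. Without overlap, 3 mucins were higher (MUC1, MUC4 and MUC20) and 3 lower (MUC2, MUC12 and MUC17), against 14.4% and 26.7% of all genes tested.

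These calls were less stable than those at 5 µM. The MUC1 call was lost without vehicle replicate 1 or 2 or without 10 µM replicate 1 or 3 (limma, adjusted p = 0.0725, 0.0843, 0.0808 and 0.0859), and the MUC4 call without any library but 10 µM replicate 2 (0.0531 to 0.106). The MUC2 call was lost without vehicle replicate 2 (limma, adjusted p = 0.0563), and median-of-ratios scaling brought its log2 fold change to -0.98, just under the fold threshold, at an adjusted p of 0.00646. Under that scaling 1125 genes were called up and 284 down, in place of 771 and 644. Over all alternatives the limma adjusted p reached from 0.00463 to 0.757 for MUC1, from 0.00723 to 0.811 for MUC4 and from 0.00198 to 1 for MUC2.

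**Figure D2:**
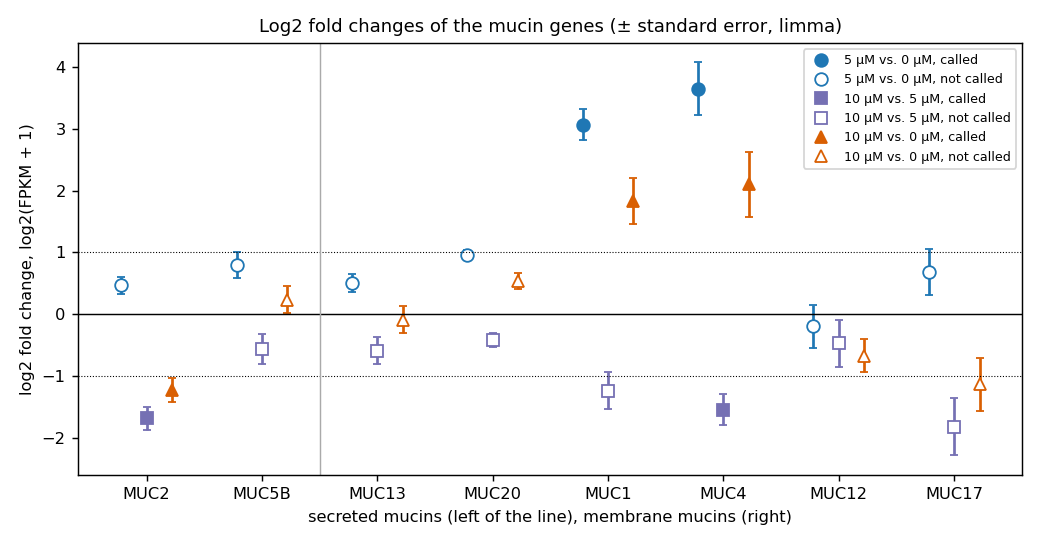
Log2 fold change ± standard error (limma) of each mucin gene in the 3 comparisons, on the log2(FPKM + 1) scale, with filled symbols for genes called and dotted lines at 1 and -1. MUC1 and MUC4 are filled above 1 at both concentrations against vehicle, and MUC2 is filled below -1 wherever 10 µM enters.

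The order of levels changed with concentration. At 5 µM it ran MUC13, MUC2, MUC20, MUC1, MUC5B, MUC4, MUC12 and MUC17, where MUC1 overlapped MUC5B, MUC4 overlapped MUC12 and MUC12 overlapped MUC17. At 10 µM it ran MUC13, MUC20, MUC2, MUC5B, MUC1, MUC12, MUC4 and MUC17, and of these neighbours MUC5B and MUC1 overlapped. MUC13 stayed at the top throughout, between the 82.7 and 92.7 percentiles of all genes above 0 in a library. MUC1 ranged from the 19.8 percentile in its lowest library to the 52.7 percentile in its highest, and MUC4 from 6.02 to 35.5.

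Ratios within a library do not depend on its scaling, and they were used to compare the secreted with the membrane mucins. The mean log2(FPKM + 1) of the 2 secreted mucins minus that of the 6 membrane mucins was 2.02, 1.88 and 1.48 in the vehicle replicates. The 5 µM replicates gave 1.06, 0.93 and 0.95 and the 10 µM replicates 0.84, 1.08 and 0.68. Both treated groups lay below every vehicle replicate, and they overlapped each other. The difference of the group means was -0.81 for 5 µM against 0 µM, -0.92 for 10 µM against 0 µM and -0.11 for 10 µM against 5 µM, where the pooled SD was 0.204, 0.243 and 0.151. As the members were chosen, these values carry no test. The 6 membrane genes did not move as a block. MUC1 and MUC4 rose against vehicle, while MUC12 and MUC17 were not called in any comparison by the main test. At 5 µM MUC1 and MUC4 had log2 fold changes of 3.07 and 3.65, above both secreted mucins. MUC12 (-0.20), MUC13 (0.50), MUC17 (0.68) and MUC20 (0.96) spread around the secreted MUC2 (0.47) and MUC5B (0.80). At 10 µM MUC2 was called down against vehicle and MUC5B was not. At 5 µM MUC12, MUC13 and MUC17 did not rise above both secreted mucins, so the lower contrast there rested mainly on MUC1 and MUC4. The contrast was not computed without these 2 genes, and it does not show a difference between 2 uniform classes.

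Counted by summed FPKM, in which the abundant genes weigh most, the picture differed. The 8 mucins together had 550000 to 678000 FPKM with vehicle, 920800 to 993200 FPKM at 5 µM and 491700 to 712100 FPKM at 10 µM. MUC2 and MUC5B together held 22.6%, 26.1% and 23.5% of this sum with vehicle. Their share was 24.2%, 18.0% and 24.3% in the 5 µM replicates, then 15.8%, 13.7% and 13.2% in the 10 µM replicates. The secreted share was therefore lower at 10 µM than in every other library and overlapped between 0 µM and 5 µM. MUC13 alone made up between 50.4% and 67.2% of the sum.

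The 2 secreted mucins did not keep a fixed ratio. MUC2 exceeded MUC5B by 4.72-, 5.89- and 5.07-fold in the vehicle replicates, by 4.07-, 4.70- and 3.69-fold at 5 µM and by 1.75-, 2.04- and 1.91-fold at 10 µM. The 10 µM ratios were all below those of the other groups. The paired neighbours on chromosomes 3 and 7 also shifted against each other. MUC4 stood at 0.0102, 0.020 and 0.0235 of MUC20 with vehicle, at 0.104, 0.0946 and 0.131 at 5 µM and at 0.0520, 0.0446 and 0.0528 at 10 µM, with no overlap between any of the groups. MUC12 exceeded MUC17 by 2.09-, 2.21- and 2.78-fold with vehicle, by 1.43-, 1.17- and 1.23-fold at 5 µM and by 3.35-, 2.47- and 4.10-fold at 10 µM, so the 5 µM ratios were the lowest.

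**Figure D3:**
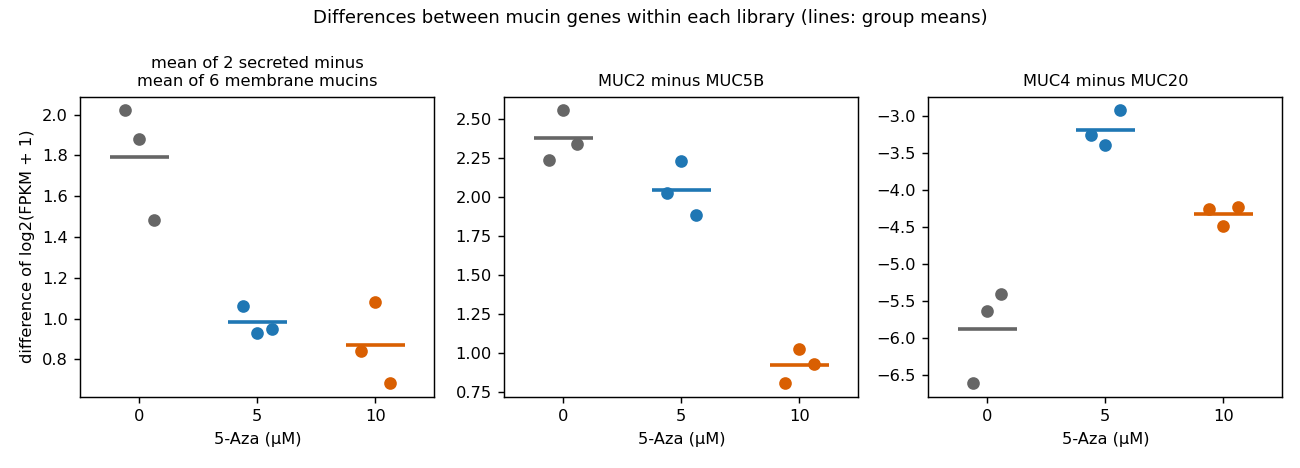
Differences of log2(FPKM + 1) between mucin genes within each library against 5-Aza concentration, with points for replicates and lines for group means. The secreted minus membrane value is highest with vehicle, MUC2 minus MUC5B is lowest at 10 µM, and MUC4 minus MUC20 is highest at 5 µM.

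Among 13 further mucin and mucin-like genes, 9 could be tested, and at 5 µM 4 of them were called up and none down, against 14.1% and 2.17% of all genes tested. The median log2 fold change of the list was 2.46, beside 0.14 over all genes tested, but this middle value is that of EMCN, an endothelial sialomucin listed at 0 in 2 vehicle replicates. MUC16, the large surface mucin also measured as CA125, had 1066, 972 and 1333 FPKM with vehicle and 7998, 5971 and 12871 FPKM at 5 µM (log2 fold change 2.93, limma, adjusted p = 0.00192). MUC21, another membrane mucin, had 1107, 1906 and 1244 FPKM against 15372, 15208 and 17381 FPKM (log2 fold change 3.53, limma, adjusted p = 0.000485). Its values are sums of 7 entries, and its vehicle values rested on an estimated 4.84, 12.6 and 11.6 fragments. MCAM, an adhesion molecule also named MUC18, had a log2 fold change of 4.44 (limma, adjusted p = 0.000162). MUC15 was listed at 0 in 2 vehicle replicates and had 1040 FPKM in the other, on an estimated 8.98 fragments. It had 7075, 14405 and 9695 FPKM at 5 µM and 3961, 4421 and 3914 FPKM at 10 µM. At 10 µM MCAM, MUC16 and MUC21 were called up against vehicle and none down, at log2 fold changes of 3.21, 2.13 and 2.49. Over all genes tested 4.07% were called up and 3.40% down in that comparison. With 1 library left out 1 to 3 genes of the list were called up there, the lowest without 10 µM replicate 1. MCAM was the only gene of the list called down against 5 µM, at -1.23, where 4.82% of all genes tested were called down. MUC6, the gel-forming mucin of gastric glands, was not called in any comparison (log2 fold change 0.57 at 5 µM, limma, adjusted p = 0.0692). MUC7 and MUCL1 were listed at 0 in all 9 libraries.

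Proteins that work with secreted mucins included the trefoil factors TFF1 and TFF2 among their calls. Of 9 such genes 4 were called up at 5 µM and none down, against 14.1% and 2.17% of all genes tested, and the list median was 2.52 beside 0.14 over all genes. With 1 library left out 3 to 6 were called up, the highest without vehicle replicate 1. TFF1 had 65724, 50783 and 41040 FPKM with vehicle and 391624, 382174 and 366073 FPKM at 5 µM (log2 fold change 2.88, limma, adjusted p = 0.000202). TFF2 had a log2 fold change of 2.52 (limma, adjusted p = 0.000202), and FCGBP, a mucus component bound to MUC2, of 1.13 (limma, adjusted p = 0.00549). The vehicle values of TFF2 rested on an estimated 9.62, 14.9 and 25.4 fragments. ZG16, a lectin of goblet cell granules, was listed at 0 in the vehicle replicates and had 8551, 10673 and 14128 FPKM at 5 µM and 1129, 1905 and 3374 FPKM at 10 µM. TFF3, the trefoil factor of intestinal goblet cells, was not called (log2 fold change 0.50, limma, adjusted p = 0.125). AGR2, the disulfide isomerase needed for MUC2 folding, had 5756320, 6288690 and 5508880 FPKM with vehicle, 5283720, 6805330 and 5018430 FPKM at 5 µM, and 2201420, 2926980 and 2384240 FPKM at 10 µM. AGR2 was at -0.048 for 5 µM against 0 µM (limma, adjusted p = 0.811) and fell by 1.19 for 10 µM against 5 µM (limma, adjusted p = 0.0390) and by 1.23 for 10 µM against 0 µM (limma, adjusted p = 0.0209). For 10 µM against 5 µM 3 genes of the list were called down, AGR2, TFF2 (-1.40) and ZG16 (-2.49), against 4.82% of all genes tested. These calls were unstable: with 1 library left out 0 to 5 were called down, and 0 without 5 µM replicate 1, 2 or 3. Against vehicle TFF1, TFF2 and ZG16 were called up and AGR2 down, where 4.07% of all genes tested were called up and 3.40% down. Leaving out 1 library gave 2 to 3 called up and 0 to 1 called down in that comparison. With median-of-ratios scaling AGR2 came to -0.98 against 5 µM and -0.99 against vehicle (limma, adjusted p = 0.0181 and 0.00613), just under the fold threshold, so both of its calls were lost.

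The enzymes of mucin glycosylation were mixed. Of 18 tested enzymes that start O-glycans, 4 were called up and 1 down at 5 µM, with a list median of -0.092. Beside the 14.1% up and 2.17% down of all genes tested, these counts do not set the list apart. GALNT5, GALNT6 and GALNT9 were called up at log2 fold changes of 1.13, 1.04 and 1.10, and GALNTL5 was called up on an estimated 2.84, 0.947 and 3.79 fragments. GALNT1 fell by 1.27 on the log2 scale (limma, adjusted p = 0.00357) and by 1.14 for 10 µM against 0 µM, the latter under the threshold at -0.90 with median-of-ratios scaling. For 10 µM against 0 µM no gene of the list was called without vehicle replicate 1 or 2, or without 10 µM replicate 1 or 3. Of 18 genes that extend or cap the chains, 7 were called up and 1 down at 5 µM, against 14.1% and 2.17% of all genes tested, with a list median of 0.57 beside 0.14. B3GNT6, which makes the core 3 chains typical of colonic MUC2, had 9343, 8397 and 8751 FPKM with vehicle and 55068, 43791 and 68849 FPKM at 5 µM (log2 fold change 2.64, limma, adjusted p = 0.000313). The sialyltransferases ST6GALNAC1 and ST6GALNAC2 rose by 1.52 and 1.95, and GCNT4 and CHST5 rose by 3.03 and 2.75 on the log2 scale, the last 2 from at most 14.4 and 4.27 estimated fragments per vehicle library. B4GALNT2, which completes the Sda antigen, was listed at 0 in the vehicle replicates and had 1990, 209 and 923 FPKM at 5 µM. GCNT3, which makes core 2 and core 4 branches, was at -0.88 (limma, adjusted p = 0.00153), under the fold threshold, and C1GALT1, the core 1 synthase, at 0.060 (limma, adjusted p = 0.737). At 10 µM against vehicle B3GNT6, GCNT4 and ST6GALNAC2 were called up and none down, where 4.07% of all genes tested were called up and 3.40% down. With any 1 library left out 2 genes of the list were called up there and 0 to 1 down.

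**Figure D4:**
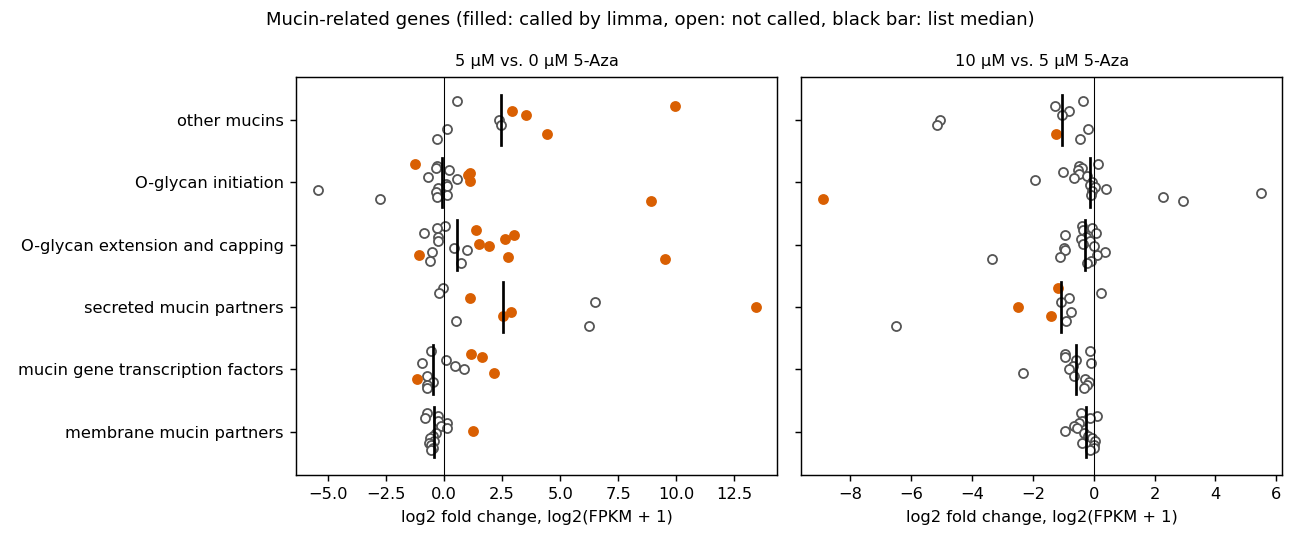
Log2 fold change on the log2(FPKM + 1) scale of genes in 6 mucin-related lists for 5 µM against 0 µM and 10 µM against 5 µM, with filled points for genes called by limma and a black bar for the list median. The medians of the further mucins and the secreted mucin partners are above 2 at 5 µM, and the points beyond 5 in either direction belong to genes listed at 0 in at least 1 library.

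Transcription factors tied to mucin genes had calls in both directions. Of 13 tested, 3 were called up and 1 down at 5 µM, with a list median of -0.48. These counts of calls do not set the list apart from the 14.1% up and 2.17% down of all genes tested. Without the fold threshold, 7 of the 13 were down and 5 up at an adjusted p of at most 0.05 by limma. Over all genes tested these shares were 17.7% and 21.3%. With 1 library left out the downward count stayed at 7 and the upward count was 3 to 5. In 1 fit of all 9 samples they were 6 and 2. ATOH1, which sets the secretory fate, had 24173, 14824 and 15514 FPKM with vehicle and 44663, 28984 and 49055 FPKM at 5 µM (log2 fold change 1.17, limma, adjusted p = 0.0180). GFI1, which acts after ATOH1, rose by 1.64 and the intestinal homeobox factor CDX1 by 2.14 (limma, adjusted p = 0.00649 and 0.000730). HNF4A, a factor of enterocyte differentiation, fell by 1.15 (limma, adjusted p = 0.000477). SPDEF, a goblet cell factor that acts on MUC2, had 308854, 287975 and 291723 FPKM against 209458, 203951 and 194526 FPKM, a log2 fold change of -0.55 (limma, adjusted p = 0.00116) under the fold threshold. For 10 µM against 5 µM no factor was called, where 4.82% of all genes tested were called down and 0.129% up. At 10 µM against vehicle 4 were called down: HNF4A (-1.44), CDX2 (-1.38), HES1 (-1.06) and FOXA1 (-1.01). No factor was called up there, and over all genes tested 3.40% were called down and 4.07% up. Median-of-ratios scaling brought HES1 to -0.81 and FOXA1 to -0.77, under the fold threshold, and with 1 library left out 0 to 5 factors were called down (0 without vehicle replicate 2, and 1 without vehicle replicate 1 or without 10 µM replicate 1).

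Partners and sheddases of membrane mucins were mostly lower at 5 µM, by less than 2-fold. Of 16 tested, 13 had a negative log2 fold change, and 10 had an adjusted p of at most 0.05 downward without being called, against 17.7% of all genes tested. The list median was -0.45, beside 0.14 over all genes. The 10 became 8 with the replicate number as a block and 4 in 1 fit of all 9 samples. MMP14, a protease that can release MUC1 from the surface, was the only gene called (log2 fold change 1.26, limma, adjusted p = 0.000933), where 14.1% of all genes tested were called up. ERBB2, the partner of MUC4, was at -0.27 (limma, adjusted p = 0.0202, under the fold threshold), MET, the partner of MUC20, at -0.27 (limma, adjusted p = 0.145) and LGALS3, a lectin that binds MUC1, at 0.11 (limma, adjusted p = 0.603). EGFR (-1.16) and SLC9A3R1 (-1.05), a scaffold that joins membrane proteins to the cytoskeleton, were called down at 10 µM against vehicle. Over all genes tested 3.40% were called down there. With median-of-ratios scaling EGFR and SLC9A3R1 stood at -0.92 and -0.81, under the fold threshold. With 1 library left out 4 genes of the list were called down without 10 µM replicate 2, and 0 without any other library.

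Genes whose profile over the 9 libraries was most like that of a mucin were found by the root mean square difference of log2(FPKM + 1) after centring each gene on its own mean, among 15277 genes above 0 in all libraries. For MUC2 these were BHLHE40 (0.158), GPSM2 (0.179) and CYP24A1 (0.182), where the median gene differed by 0.717. For MUC13 they were EIF2AK2 (0.0745), SMARCA1 (0.0982) and CD47 (0.0986), with a median of 0.428. For MUC4, whose group means ranged most widely, they were SERPINF1 (0.23), CERCAM (0.282) and DNALI1 (0.285), with a median of 1.6. All points share the same libraries and dose groups, and the likeness is a description.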

How the data were processed

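RNA from 9 HT-29 cultures (3 each at 0, 5 and 10 µM 5-Aza) was sequenced as paired-end libraries. The submitters' processing notes name hg19 and TopHat. The authors deposited 1 FPKM value per gene entry. Per the study's methods, the reference was the Ensembl version of that genome and FPKM came from Cufflinks. The annotation release and the library term are not given in the sources used here. Each table held 24934 entries, and values of the 543 repeated symbols were summed. Groups and replicate numbers came from the sample labels, and correlations of deviations between samples with the same number ran from -0.0743 to 0.0860, so the numbers were not taken to pair the samples.

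Values were transformed as log2(FPKM + 1). Genes with a largest value of at least 10 in either group were fitted in limma 3.58.1 (R 4.3.3, lmFit and eBayes with trend) on the 6 samples of a comparison, with Benjamini-Hochberg adjustment over all genes tested. This filter is lenient, since COL1A2 at 68.7 FPKM in vehicle replicate 3 had an estimated 0.902 fragments. The genes tested thus include some near 0. The tables were handled in numpy 2.4.6, pandas 2.3.3 and scipy 1.17.1. Of these steps only the limma fit was tested on simulated data. Those data covered genes with vehicle levels above that of MUC4 and not genes listed at 0. Fragments were estimated from the steps between low values: at 12 microRNA genes of 110 nucleotides, 100% of 46 values were whole multiples within 0.01, and 61.6% of 567 longer genes came within 10% of a relation to annotated length. These estimates and all precision drawn from them are approximate, and no count test was run on them.

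All mucins of the panel are named. From each other list at most 6 genes called against vehicle are named, those with the largest change at 5 µM, besides AGR2, SPDEF, GCNT3, B3GNT6, C1GALT1, LGALS3, ERBB2, MET and TFF3. EMCN, MUC6, MUC7, MUCL1, EPCAM, CDH1, CD3E, CD68, DCN and COL1A2 were named after their values were seen. The members and lists were chosen with earlier results of these data known. Alternatives were other pseudocounts (0.1 and 1000), other filters, no fold threshold, a test of the 2-fold change itself (treat), 1 fit of all 9 samples, a replicate block, median-of-ratios scaling, the largest entry of repeated symbols and leaving out each library. Applying them to the lists beside the mucins was chosen after seeing the data.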

Additional observations from a re-analysis of the deposited data

How the results depend on the processing

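The number of mucins called at 5 µM against vehicle was 2 under all settings but one that dropped the fold threshold (6, with MUC2, MUC5B, MUC13 and MUC20 added) and ranged from 2 to 3 with each library left out. For 10 µM against 5 µM the 2 calls became 4 with a pseudocount of 1000 (MUC1 and MUC17 added) and 0 under treat, and ranged from 0 to 3 with 1 library left out. For 10 µM against 0 µM the 3 calls became 0 under treat and ranged from 0 to 3. With the replicate number as a block, 1 mucin was called for 10 µM against 5 µM (MUC2, while MUC4 had an adjusted p of 0.0607 by limma) and MUC4 also missed the threshold against vehicle (0.0634); the block changed no other mucin call, although it left 4 in place of 6 mucins at an adjusted p of at most 0.05 at 5 µM, and samples did not all correlate best with their own number. A fit of all 9 samples called MUC1, MUC2 and MUC17 for 10 µM against 5 µM, while MUC4 missed at 0.0508. Genes called down there numbered 407 with the block and 969 without. Among all 20085 genes tested the count called down ranged from 176 to 1873, the highest without 10 µM replicate 2. Against vehicle 165 to 1500 were called down and 337 to 819 up with 1 library left out, in place of 644 and 771. Treat called 1463 genes up and 70 down at 5 µM, 7 and 374 for 10 µM against 5 µM, and 145 and 16 for 10 µM against vehicle. Without a fold threshold 4263 and 3553 genes were called at 5 µM, 64 up for 10 µM against 5 µM and 1837 down for 10 µM against vehicle; 1 fit of all 9 samples called 1174 up there. Directions reversed for MUC12 at 5 µM without 5 µM replicate 2 (range -0.52 to 0.16) and for MUC13 at 10 µM against vehicle with median-of-ratios scaling (0.16) and when 1 library was left out (-0.31 to 0.056). The secreted minus membrane differences kept their sign, from -0.97 to -0.70, from -0.22 to -0.019 and from -1.08 to -0.81 with 1 library left out. MUC1 and MUC4 were among the membrane mucins in all of these settings, so the kept sign does not show that it holds without them. The causes of these changes were not tested. Depth limits MUC1 and MUC4 with vehicle and MUC17 at 10 µM (51 to 122 estimated fragments).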
